A study of Mus musculus with 12 samples.

Results

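The response of macrophages labelled Acod1-/-, after the gene of the itaconate-making enzyme, to particulate matter (PM) was described by comparing the PM-treated and vehicle-treated libraries labelled Acod1-/-, which are 4 of the 12 libraries of the series, 2 per group. The cells were bone marrow-derived macrophages (BMDMs), grown from mouse bone marrow in M-CSF, and the labels give the strain of the Acod1-/- cells as C57BL/6NJ-Acod1em1(IMPC)J/J. Cells received PM, a standard urban dust, at 20 μg/cm2 for 24 hours, or the PBS vehicle, and neither group received 4-octyl itaconate (OI). WT BMDMs, labelled C57BL/6, had vehicle or PM in the same way and serve below to show where the response differed. They and the libraries with OI also enter the shared estimate of the spread behind every p-value of the edgeR fit. The labels do not tie libraries to animals, cultures or ages, so p-values measure the spread between these libraries, which may be technical. The mutation is in every cell of the line and not limited to macrophages, and the deposited labels describe 1 mutant line.

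Macrophages take up inhaled particles and answer them with programmes that are well known from other stimuli. NF-κB drives cytokines, chemokines and its own inhibitors. NRF2, released from KEAP1 by oxidants and electrophiles, drives genes for glutathione and thiol chemistry, and type I interferon drives antiviral genes through STAT and IRF factors. ACOD1 makes itaconate from the TCA cycle intermediate cis-aconitate, and itaconate can inhibit succinate dehydrogenase and modify KEAP1.

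The 4 libraries held between 34009208 and 34359553 reads counted on genes, and the share of mitochondrial transcripts was between 1.58% and 1.79%. Of 48795 genes listed, 10968 had a CPM (the count scaled by library size) over the minimum of 1.5 in at least 2 of these libraries and were tested. Between the replicates the chi-square per degree of freedom, near 1 for counting noise alone, was 2.61 with vehicle and 8.32 with PM. In the PM group the difference between the replicates was related to gene length (Spearman's rho of -0.37 across 10955 genes, which are not independent replicates). All 11 macrophage markers examined passed the filter, among them Csf1r (normalized CPM 1073 and 1110.5 with vehicle and 1794 and 1697 with PM) and Adgre1, which encodes F4/80 (1764 and 1874 with vehicle and 2186 and 1966 with PM). Their summed normalized CPM, which Lyz2 dominated, was 14652 and 14702 with vehicle and 27779.8 and 25037 with PM.

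Markers of other cells were low. The summed CPM of the 7 T and NK cell markers was between 0.52 and 1.01 over the 4 libraries, that of the 5 B cell markers between 2.54 and 2.87, and those of the mast cell, dendritic cell and epithelial lists were at most 0.546. The 5 stromal markers summed to between 1.77 and 2.39 and the 3 endothelial markers to between 1.67 and 2.68, while the 4 erythroid markers had no reads. Cd3d, Cd3e, Cd3g, Cd8a, Cd79a and Pax5 also had none. The 10 neutrophil markers summed to 8.46 and 7.84 with vehicle and to 21.3 and 21.3 with PM, and S100a8 (log2 fold change 1.79, SE 0.351, adjusted p = 0.00470) and S100a9 (log2 fold change 1.30, SE 0.210, adjusted p = 0.00147) accounted for most of this, and S100a9 passed the CPM filter with PM alone. Ly6g, the defining marker of mature neutrophils, had no reads in any of the 4 libraries, and Elane and Mpo had at most 7. In bulk RNA, fewer cells of a type and less RNA per cell cannot be told apart.

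Acod1, the targeted gene, is given first. Its reads were present in the libraries labelled Acod1-/- and rose with PM, at a normalized CPM of 1.26 and 1.22 with vehicle and 107 and 94.0 with PM (log2 fold change 6.34, SE 0.291, adjusted p = 4.30e-07). The fold change was 81.1. In WT libraries the values were 1.85 and 2.499 with vehicle and 181 and 171 with PM, a log2 fold change of 6.33. The gene-level count does not show which exons these reads cover, so it does not test whether the transcript is intact, and the groups are named by their labels throughout. Acod1 lies at chr14:103046977-103056573 (GRCm38, plus strand), and the reads could come from any exon of this span.

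The promoter of Acod1 is shown because this gene ranked among the largest increases although the libraries carry the mutant label. The RefSeq window of 250 bases before to 50 bases after the gene's start (GRCm38.p6, chr14:103046762-103047061, plus strand) had no match on either strand to the NF-κB site in the form sought, which is GGG, a purine, any 2 bases, 2 pyrimidines and CC, so no base is in capitals. Shorter forms of the site, with fewer bases G at the start, were not sought. The printed window does hold the letters ggaaattcc, which have the form sought without its first G.
Acod1: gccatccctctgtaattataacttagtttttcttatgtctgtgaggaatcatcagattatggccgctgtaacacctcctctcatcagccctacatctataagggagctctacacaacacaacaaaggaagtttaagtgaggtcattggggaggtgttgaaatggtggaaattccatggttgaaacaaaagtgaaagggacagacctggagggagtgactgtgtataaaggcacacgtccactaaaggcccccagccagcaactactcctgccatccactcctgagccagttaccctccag
No match says only that these letters are not in this window.

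PM raised more genes than it lowered in the libraries labelled Acod1-/- at the 2-fold threshold. With edgeR's quasi-likelihood test, 454 differentially expressed genes (DEGs) passed at an adjusted p of 0.05 with a change of 2-fold or more. Of these 317 were higher and 137 lower with PM, which is 2.89% and 1.25% of the genes tested, or 4.14% together. The adjusted p alone was met by 2622 genes (23.9%), and this count rests on every library, since it was between 1369 and 1675 when any 1 of the 4 was left out. It was 4008 with the replicate block and 5574 with edgeR on the compared libraries alone. The shares of 2.89%, 1.25% and 23.9% are the background of the list counts that follow. Lists and members were chosen with earlier results of these data known. A list count above these shares may therefore follow in part from that choice, and it is a description and not a test. In what follows, a gene that "rose" or "fell" met this adjusted p, and a DEG also changed 2-fold. The median log2 fold change was 1.59 among DEGs that were higher and -1.32 among those that were lower, against a median of all genes near 0.00. The 2 groups did not overlap for any of the 454 DEGs, but neither did they for 77.4% of all genes tested. With PM alone, 111 tested genes passed the CPM filter, of which 80 were DEGs, and 130 passed with vehicle alone, of which 38 were DEGs. Such genes had to differ, and under a filter that required the CPM in all 4 libraries 316 DEGs were found, 315 of them among the 454.

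Exons of 4149 tested genes, 133 of them DEGs, overlap those of another annotated gene, and how the counting treated strand and shared exons is not given in the sources used here, so the counts of such genes are uncertain. Among the genes named in the text these are Acsl1, Ahr, Ccnd1, Ccnd2, Cd274, Cd74, Cebpb, Cox5a, Csf1r, Cxcl10, Cxcl16, Fpr2, Gas6, Gbp2, Gclm, Gpr84, Gss, Hmga2, Hspa1a, Hvcn1, Il1a, Il1b, Irf1, Irf7, Itga4, Itgav, Keap1, Lox, Mafg, Me1, Mt2, Nfkb2, Nr1h3, Oasl1, Pla2g7, Ptgs1, Rtp4, Serpinb2, Slco2b1, Slpi, Smpd3, Sqstm1, Tapbp, Thbs1, Tnfaip2, Top2a, Usp18 and Zfp36. For each list the text gives up to 4 DEGs with the largest log2 fold change in size, or the 2 members with the smallest p where there was no DEG, and all other members were named after their values were seen.

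**Figure D1:**
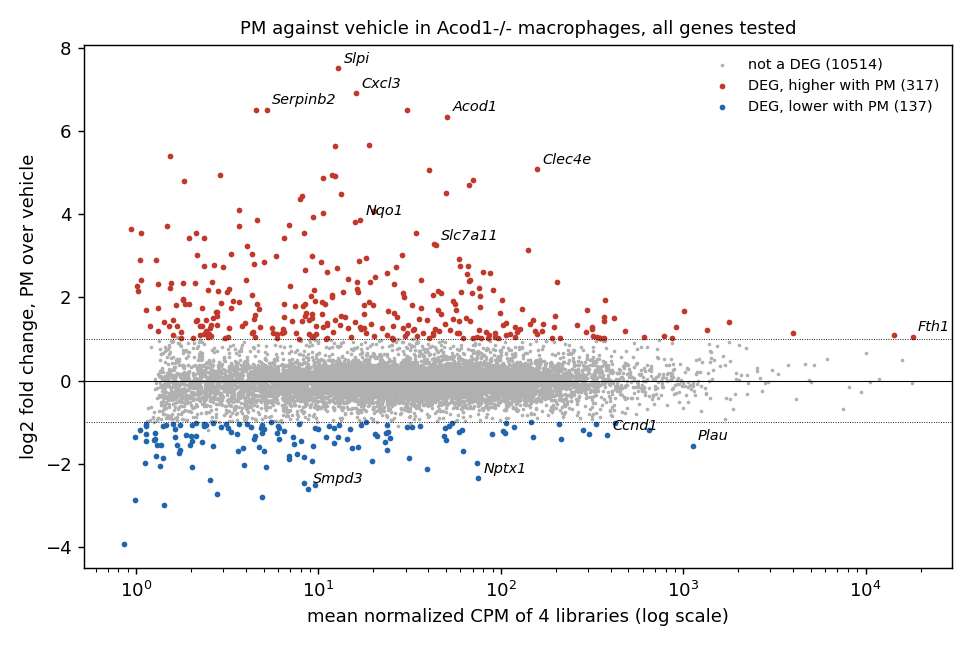
Log2 fold change of PM over vehicle in Acod1-/- macrophages against mean normalized CPM over 4 libraries (log scale) for 10968 genes. The 317 DEGs higher with PM (red) reach 7.498 and the 137 lower (blue) reach -3.94, and the dotted lines mark a 2-fold change.

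Among DEGs with a mean of at least 5 CPM, the largest increases were led by Slpi, Cxcl3, H2-M2, Serpinb2 and Acod1. Slpi, a secreted inhibitor of neutrophil elastase, had a normalized CPM of 0.137 and 0.139 with vehicle and 26.2 and 24.8 with PM (log2 fold change 7.498, SE 0.464, adjusted p = 2.78e-06). This was the largest log2 fold change of all genes tested. Serpinb2, an inhibitor of plasminogen activators, had 0.0819 and 0.139 with vehicle and 9.97 and 10.7 with PM (log2 fold change 6.50, SE 0.296, adjusted p = 4.30e-07), and H2-M2, a non-classical MHC class I gene, had 0.655 and 0.665 with vehicle and 65.3 and 55.4 with PM (log2 fold change 6.51, SE 0.243, adjusted p = 1.37e-07). Haptoglobin (Hp), which binds free haemoglobin, had 0.737 and 0.748 with vehicle and 25.0 and 20.9 with PM (log2 fold change 4.94, SE 0.226, adjusted p = 4.30e-07). The other 6 of the 10 largest increases at this mean CPM were Cxcl3, Acod1, Fpr1, Cxcl1, Clec4e and Marco. All but Clec4e and Marco passed the CPM filter with PM alone, so that their groups had to lie apart. With vehicle, 8 of these 10 genes were at 1.26 normalized CPM or less in both libraries, so their fold changes rest on few vehicle reads.

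The largest decreases among DEGs with a mean of at least 5 CPM were smaller in size than the largest increases. Smpd3, a neutral sphingomyelinase, had 15.1 and 14.98 with vehicle and 2.38 and 2.59 with PM (log2 fold change -2.60, SE 0.168, adjusted p = 3.56e-06), and the transcription factor gene Tox2 had 16.2 and 16.4 with vehicle and 2.64 and 3.10 with PM (log2 fold change -2.501, SE 0.128, adjusted p = 7.14e-07). Gpr34, a receptor for lysophosphatidylserine, had 14.2 and 13.8 with vehicle and 2.14 and 2.93 with PM (log2 fold change -2.46, SE 0.139, adjusted p = 1.43e-06). The replicates of these 3 genes lay far closer to each other than the groups did, which follows in part from their choice as DEGs. Nptx1, a secreted pentraxin, was the most abundant of the 8 together with Rasgrp3, an activator of RAS signalling, with 123 and 128 with vehicle and 22.7 and 26.7 with PM (-2.35, SE 0.126) against 116 and 121 with vehicle and 28.4 and 31.2 with PM (-1.99, SE 0.173). The organic anion transporter gene Slco2b1 (-2.13, SE 0.187), the protease inhibitor gene Serpinb1a (-2.08, SE 0.130) and the Fc receptor-like gene Fcrls (-1.93, SE 0.147) completed the list.

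**Figure D2:**
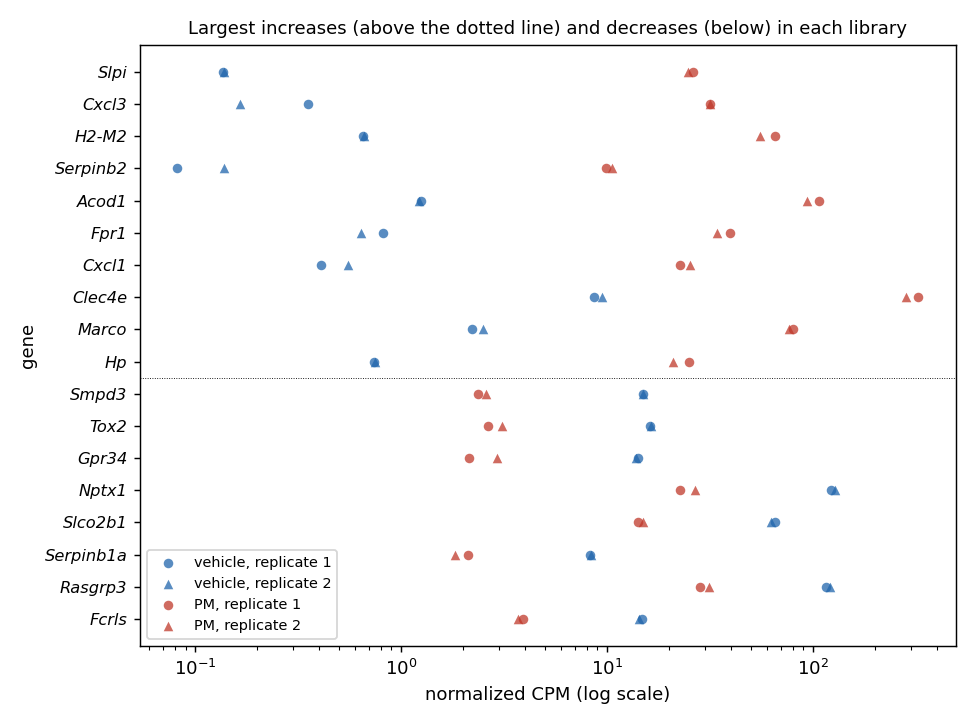
Normalized CPM (log scale) in each of the 4 libraries for 18 DEGs with a mean of at least 5 CPM, the 10 that rose and the 8 that fell by the most. The PM libraries (red) and vehicle libraries (blue) are apart for all 18 genes, as the choice of DEGs implies. The replicates of a group lie closer to each other than to the other group. With vehicle they lie apart for Cxcl3 (0.355 and 0.166) and Serpinb2 (0.0819 and 0.139), which had few reads.

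Chemokines moved in both directions. The neutrophil-attracting CXC chemokines Cxcl1, Cxcl2 and Cxcl3, neighbours on chromosome 5, rose strongly, while the monocyte-attracting Ccl2 and Ccl7 fell. Of 29 chemokine genes listed, 18 were tested, of which 4 passed the filter with PM alone and 1 with vehicle alone. Among the 18, 8 were DEGs, all higher, against 2.89% of all genes, and the median log2 fold change was 0.66. Under the filter that required the CPM in all 4 libraries this median was -0.01. Cxcl3 had 0.355 and 0.166 with vehicle and 31.7 and 31.8 with PM (log2 fold change 6.91, SE 0.481, adjusted p = 5.77e-06) and Cxcl1 had 0.409 and 0.554 with vehicle and 22.8 and 25.2 with PM (log2 fold change 5.63, SE 0.268, adjusted p = 4.72e-07). Cxcl2 was the most abundant of the 3, with 5.13 and 4.82 with vehicle and 133 and 124 with PM (log2 fold change 4.69, SE 0.281, adjusted p = 2.20e-06). Cxcl1 and Cxcl3 passed the filter with PM alone.

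Cxcl10, a ligand of the chemokine receptor CXCR3 on T cells and an interferon-inducible gene, had 1.09 and 1.22 with vehicle and 17.5 and 17.6 with PM (log2 fold change 3.92, SE 0.252, adjusted p = 3.41e-06). Cxcl10 also passed the CPM filter with PM alone, so that its groups had to lie apart. The other 4 chemokine DEGs, Ccl5, Ppbp, Cxcl16 and Pf4, had log2 fold changes of 3.82, 2.81, 2.18 and 1.20. Ccl2, which draws monocytes through CCR2, had 104 and 109 with vehicle and 63.1 and 58.3 with PM (log2 fold change -0.81, SE 0.155, adjusted p = 0.00433), and Ccl7, another CCR2 ligand, had 27.4 and 28.5 with vehicle and 17.4 and 18.4 with PM (log2 fold change -0.64, SE 0.167, adjusted p = 0.0205). The values of Ccl3 were 114 and 118 with vehicle and 98.3 and 85.7 with PM (log2 fold change -0.34, SE 0.166, adjusted p = 0.171) and those of Ccl4 were 77.6 and 77.3 with vehicle and 50.9 and 49.4 with PM (log2 fold change -0.63, SE 0.205, adjusted p = 0.0514), so neither met the threshold, although both libraries with PM were below both with vehicle. The groups also did not overlap for 77.4% of all genes tested. Ccl6 and Ccl9, which were at least at 1209 and 1085.5 normalized CPM in every library, rose with log2 fold changes of 0.50 and 0.83.

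Among the tested cytokines and growth factors of the list, Il1a, Il1b and Tnf rose the most. Of the 27 listed members, 12 were hardly expressed. The other 15 were tested, of which 3 were DEGs higher (against 2.89% of all genes) and 1 was a DEG lower (1.25%), with a median log2 fold change of 0.13. Under the alternative settings this median ran from 0.05 to 0.16. Il1a had 0.655 and 0.748 with vehicle and 21.6 and 19.2 with PM (log2 fold change 4.86, SE 0.150, adjusted p = 5.82e-08) and Il1b had 0.710 and 0.720 with vehicle and 16.3 and 14.5 with PM (log2 fold change 4.42, SE 0.180, adjusted p = 2.19e-07), and both passed the filter with PM alone. Tnf had 15.5 and 17.4 with vehicle and 69.8 and 66.1 with PM (log2 fold change 2.05, SE 0.159, adjusted p = 1.23e-05). Hbegf, an EGF receptor ligand, was the DEG that fell, with 16.9 and 19.3 with vehicle and 6.13 and 6.55 with PM (log2 fold change -1.51, SE 0.122, adjusted p = 1.56e-05).

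Il6 was not tested because its CPM stayed below 1.5. It had 0 and 1 reads with vehicle and 32 and 37 with PM. None of the 12 untested cytokines had more than 62 reads in any of the 4 libraries. Il10, an anti-inflammatory cytokine, had 38 and 62 reads with vehicle and 40 and 45 with PM, and Ifnb1, the interferon-β gene, had between 0 and 2. Il1rn, the interleukin-1 receptor antagonist, rose, with 156 and 163 with vehicle and 253 and 249 with PM (log2 fold change 0.65, SE 0.0669, adjusted p = 7.56e-05). Vegfa fell, with 178 and 177 with vehicle and 97.3 and 102 with PM (log2 fold change -0.84, SE 0.0856, adjusted p = 7.56e-05).

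Most genes of NF-κB, its inhibitors and its targets rose. All 24 listed members were tested, 2 of them having passed with PM alone, and 12 were DEGs, all higher, against 2.89% of all genes. The median log2 fold change was 1.01, and at the adjusted p alone 20 rose, 2 fell and 2 did not pass. Socs3, an inhibitor of cytokine receptor signalling, had 0.3003 and 0.498 with vehicle and 4.57 and 4.05 with PM (log2 fold change 3.42, SE 0.229, adjusted p = 4.49e-06), and Traf1, an adaptor of TNF receptors, had 0.764 and 0.803 with vehicle and 7.77 and 6.96 with PM (log2 fold change 3.23, SE 0.206, adjusted p = 3.24e-06). Sod2, the mitochondrial superoxide dismutase, had 64.6 and 67.6 with vehicle and 347 and 333 with PM (log2 fold change 2.36, SE 0.149, adjusted p = 3.01e-06). Nfkbie, which encodes the inhibitor IκBε, had 11.4 and 10.4 with vehicle and 46.9 and 47.2 with PM (log2 fold change 2.11, SE 0.124, adjusted p = 1.95e-06). Socs3 and Traf1 passed the filter with PM alone.

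For the subunits themselves, the log2 fold changes were 0.31 for Nfkb1, 0.43 for Rela and -0.12 for Rel, of which that of Rel did not pass (adjusted p = 0.658). Those of Relb and Nfkb2, subunits of the non-canonical pathway, were 1.75 and 1.22, and both were DEGs. The inhibitor genes Nfkbia and Tnfaip3 had log2 fold changes of 1.94 and 1.02. Zfp36, which destabilises cytokine mRNA, and Cd83 fell, with log2 fold changes of -0.25 and -0.91. A match to the NF-κB site on either strand was found in the promoter windows of 10 of the 20 listed genes with a window, and of 7 of the 11 that were DEGs (63.6%). Among all genes tested with a window the share was 12.1%, among DEGs that rose 21.2% and among DEGs that fell 17.9%. A match is a description of the letters and not a measured site.

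Genes of the interferon response rose as a group. All 34 listed members were tested, 1 of them having passed with PM alone, all 34 rose at the adjusted p, and 26 were DEGs against 2.89% of all genes. Their log2 fold changes ran from 0.64 to 3.54 with a median of 1.45. Gbp5, a guanylate-binding protein that acts with inflammasomes, had 1.17 and 1.47 with vehicle and 15.1 and 15.7 with PM (log2 fold change 3.54, SE 0.205, adjusted p = 1.83e-06). Ifit1, which binds foreign RNA, had 7.13 and 5.43 with vehicle and 52.7 and 49.1 with PM (log2 fold change 3.02, SE 0.140, adjusted p = 4.35e-07), and its relative Ifit3 had 4.04 and 4.35 with vehicle and 34.3 and 29.9 with PM (log2 fold change 2.94, SE 0.155, adjusted p = 9.71e-07). Gbp2 had 13.9 and 13.6 with vehicle and 111 and 98.4 with PM (log2 fold change 2.93, SE 0.0925, adjusted p = 5.82e-08). The 2 libraries with PM were above the 2 with vehicle in each of these genes. Groups did not overlap for any DEG, nor for 77.4% of all genes tested.

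Factors that carry the interferon signal rose as well. Irf7 had a log2 fold change of 2.12, Irf1 of 1.15 and Stat2 of 0.77, the last below the 2-fold threshold. The interferon-β gene itself had at most 2 reads in a library, as given above. Among the sensors of viral RNA, Ddx58, which encodes RIG-I, had a log2 fold change of 1.04 and Ifih1, which encodes MDA5, had 0.77.

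The motif of the interferon-stimulated response element, which is GAAA followed after any 2 bases by GAAA on either strand, was added to the search after the values of these genes were seen. It matched the promoter windows of 16 of the 26 listed genes with a window (61.5%), against 3.95% of all genes tested, 13.1% of DEGs that rose and 3.16% of DEGs that fell. The 100 bases around the first match are shown for the 4 members with the largest log2 fold changes, with matches in capitals, to let the shared letters of genes that rose together be seen. They are RefSeq sequences of GRCm38.p6, on the gene's strand, at chr3:142496724-142496823, plus strand (Gbp5), chr19:34640740-34640839, plus strand (Ifit1), chr19:34583328-34583427, plus strand (Ifit3) and chr3:142620559-142620658, plus strand (Gbp2).
Gbp5: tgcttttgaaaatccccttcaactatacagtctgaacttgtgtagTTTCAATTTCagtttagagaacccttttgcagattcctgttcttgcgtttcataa
Ifit1: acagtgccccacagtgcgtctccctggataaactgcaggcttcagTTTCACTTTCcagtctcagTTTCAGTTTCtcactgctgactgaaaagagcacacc
Ifit3: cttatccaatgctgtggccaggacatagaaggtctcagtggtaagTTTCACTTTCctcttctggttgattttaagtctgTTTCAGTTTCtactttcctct
Gbp2: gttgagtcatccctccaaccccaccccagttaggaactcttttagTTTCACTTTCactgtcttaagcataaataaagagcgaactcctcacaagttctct
Ifit1 and Ifit3 each held 2 matches in the window, and Gbp5 and Gbp2 held 1 each. All lie on the opposite strand, so the motif reads TTTC, any 2 bases and TTTC. On the printed strand, the first match began 104 bases before the RefSeq start of the window in Ifit1, 156 in Ifit3, 59 in Gbp2 and 165 in Gbp5. The window of Gbp5 lies inside the span of the gene in the counting annotation.

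NRF2 target genes rose in libraries that carry the Acod1-/- label. All 27 listed members were tested, none of them through 1 group alone, and 12 were DEGs, all higher, against 2.89% of all genes. At the adjusted p alone 25 rose and none fell, with a median log2 fold change of 0.90. Nqo1, a quinone reductase, had 2.27 and 2.13 with vehicle and 32.6 and 31.0 with PM (log2 fold change 3.85, SE 0.110, adjusted p = 4.31e-08). Slc7a11, the cystine importer that supplies glutathione synthesis, had 8.30 and 8.34 with vehicle and 77.1 and 82.0 with PM (log2 fold change 3.26, SE 0.162, adjusted p = 5.81e-07). Gclm, the modifier subunit of the enzyme that makes γ-glutamylcysteine, had 142 and 140.1 with vehicle and 457 and 453 with PM (log2 fold change 1.69, SE 0.0630, adjusted p = 1.37e-07), and Me1, a malic enzyme that yields NADPH, had 3.96 and 4.62 with vehicle and 12.6 and 12.7 with PM (log2 fold change 1.56, SE 0.143, adjusted p = 3.74e-05). The replicates of a group were close and the groups far apart in each, which follows in part from their choice as DEGs.

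Nfe2l2, which encodes NRF2, had 282 and 288 with vehicle and 423 and 391 with PM and Keap1, its inhibitor, had 62.0 and 61.8 with vehicle and 76.3 and 79.8 with PM, with log2 fold changes of 0.51 and 0.33. Both rose, and both stayed below 2-fold. Hmox1, the heme oxygenase that NRF2 and heme induce, was abundant in every library at 1414 and 1459.8 with vehicle and 2618 and 2598 with PM (log2 fold change 0.86, SE 0.0930, adjusted p = 1.13e-04), and it was below the 2-fold threshold. The 2 members that did not pass were Mafg, a partner of NRF2 (log2 fold change 0.09, SE 0.0628, adjusted p = 0.329), and Bach1, a repressor of the same genes (log2 fold change -0.07, SE 0.185, adjusted p = 0.797).

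The promoters of the 4 NRF2-list DEGs with the largest log2 fold changes are shown because the antioxidant response element, the site that NRF2 binds, is defined by sequence. Each window holds 300 bases of RefSeq sequence of GRCm38.p6 on the gene's strand, from 250 before to 50 after the start, and capitals mark matches to the core TGACNNNGC on either strand. They lie at chr8:107403156-107403455, minus strand (Nqo1), chr3:50443564-50443863, minus strand (Slc7a11), chr3:122245307-122245606, plus strand (Gclm) and chr9:86695865-86696164, minus strand (Me1, the nearer of 2 windows).
Nqo1: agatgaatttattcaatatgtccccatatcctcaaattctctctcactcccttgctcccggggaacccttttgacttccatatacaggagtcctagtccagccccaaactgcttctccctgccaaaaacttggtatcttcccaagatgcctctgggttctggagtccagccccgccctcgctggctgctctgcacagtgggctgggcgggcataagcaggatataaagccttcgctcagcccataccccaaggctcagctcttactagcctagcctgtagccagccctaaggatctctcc
Slc7a11: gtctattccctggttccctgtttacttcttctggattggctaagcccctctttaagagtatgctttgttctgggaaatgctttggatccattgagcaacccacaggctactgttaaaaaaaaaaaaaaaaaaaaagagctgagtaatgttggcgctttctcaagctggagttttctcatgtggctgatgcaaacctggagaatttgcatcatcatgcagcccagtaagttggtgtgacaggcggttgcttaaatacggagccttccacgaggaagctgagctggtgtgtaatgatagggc
Gclm: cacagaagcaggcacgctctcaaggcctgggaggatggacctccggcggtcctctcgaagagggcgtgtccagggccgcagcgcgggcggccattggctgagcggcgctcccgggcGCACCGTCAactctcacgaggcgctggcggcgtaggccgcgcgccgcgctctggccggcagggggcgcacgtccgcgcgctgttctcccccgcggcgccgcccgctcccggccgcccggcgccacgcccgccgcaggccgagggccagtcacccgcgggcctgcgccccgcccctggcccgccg
Me1: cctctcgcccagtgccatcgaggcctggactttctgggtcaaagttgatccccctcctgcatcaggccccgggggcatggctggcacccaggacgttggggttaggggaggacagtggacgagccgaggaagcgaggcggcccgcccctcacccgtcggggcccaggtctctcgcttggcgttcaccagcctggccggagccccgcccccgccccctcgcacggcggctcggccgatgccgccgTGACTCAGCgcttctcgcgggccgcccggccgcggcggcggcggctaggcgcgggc
Gclm held 1 match, on the opposite strand, that began 134 bases before the start, and Me1 held 1 that began 6 bases before it. Nqo1 and Slc7a11 held none in these windows. The core matched the windows of 10 of the 22 listed genes with a window (45.5%) and of 4 of the 11 DEGs among them (36.4%), against 17.4% of all genes tested, 20.0% of DEGs that rose and 21.1% of DEGs that fell. The match of Me1 contains TGACTCA, the letters of an AP-1 site, so the 2 motifs overlap there. Such an overlap was present in 2 of these listed genes and in 46 of the genes tested.

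**Figure D3:**
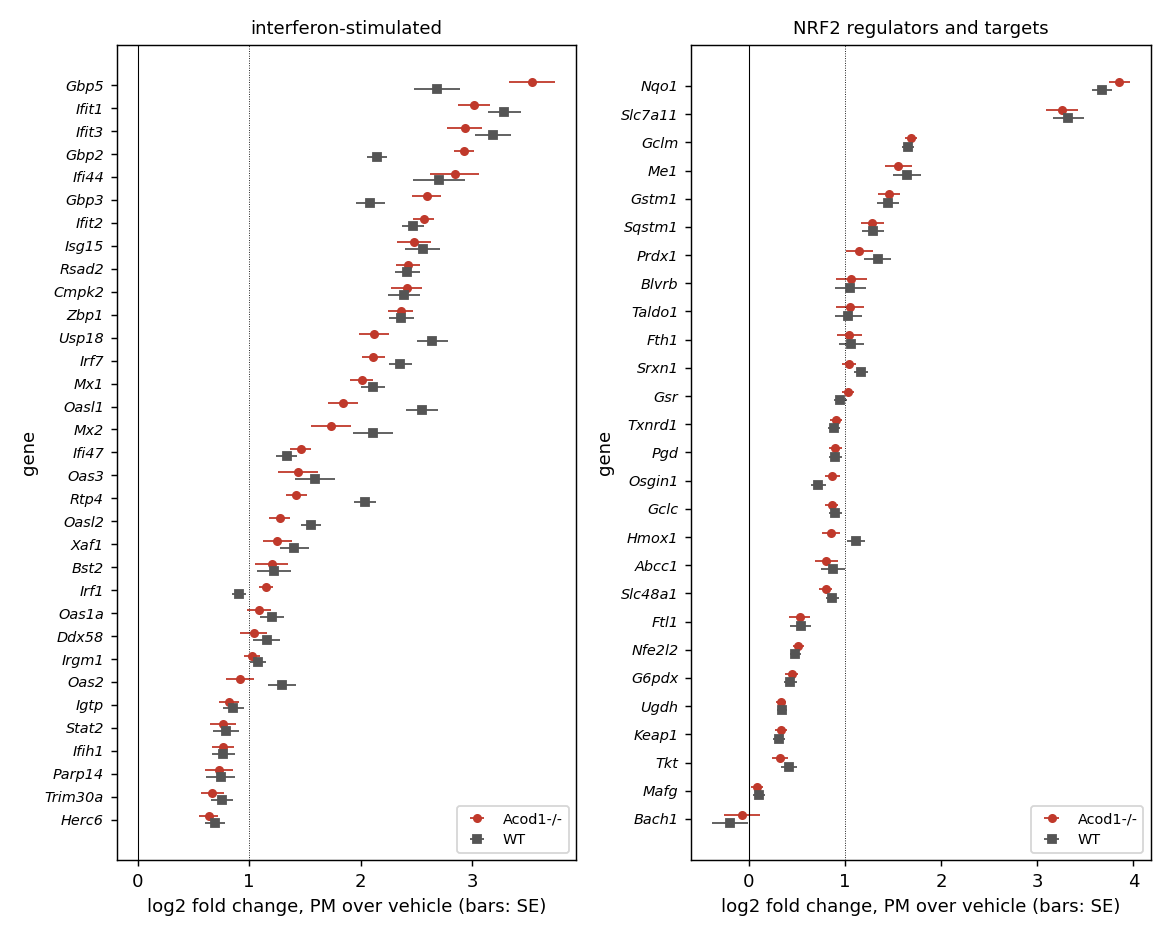
Log2 fold change of PM over vehicle with its SE for 33 of the 34 interferon-stimulated and all 27 NRF2 genes, in Acod1-/- (red circles) and WT (grey squares) macrophages. Every interferon-stimulated gene plotted is above 0 in both genotypes, and 25 of the 27 NRF2 genes rose in Acod1-/- cells.

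Glutathione and thiol enzymes, some of them NRF2 targets, mostly rose where they changed. Of 41 listed genes 36 were tested, 12 were DEGs, all higher, against 2.89% of all genes, and the median log2 fold change was 0.47. The glutathione transferase gene Gsta3 had 7.89 and 8.31 with vehicle and 83.8 and 72.8 with PM (log2 fold change 3.27, SE 0.156, adjusted p = 4.73e-07), Gstm2 had 2.57 and 2.24 with vehicle and 12.5 and 10.7 with PM (log2 fold change 2.27, SE 0.163, adjusted p = 7.27e-06) and Mgst2, a microsomal transferase, had 4.34 and 4.60 with vehicle and 18.2 and 14.7 with PM (log2 fold change 1.88, SE 0.228, adjusted p = 2.46e-04). The synthesis enzymes Gclc and Gss had log2 fold changes of 0.86 and 1.54. Gpx3, the secreted glutathione peroxidase, was the member that fell, with 8.60 and 8.20 with vehicle and 5.69 and 5.40 with PM (log2 fold change -0.60, SE 0.0853, adjusted p = 6.91e-04). The 5 untested members had at most 21 reads in a library.

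The aryl hydrocarbon receptor (AHR), which senses the aromatic compounds that urban dust carries, was examined through 12 genes, of which 8 were tested. Of these 3 were DEGs, all higher, against 2.89% of all genes, and 1 member, Serpinb2, passed the filter with PM alone. Ahrr, the repressor that AHR induces, had 4.97 and 6.54 with vehicle and 26.8 and 26.4 with PM (log2 fold change 2.21, SE 0.179, adjusted p = 1.56e-05), and the other DEGs were Serpinb2 and Nqo1, given above. Ahr itself had 8.60 and 7.56 with vehicle and 9.56 and 9.69 with PM (log2 fold change 0.25, SE 0.156, adjusted p = 0.262). Its best-known target Cyp1a1 had 1 and 0 reads with vehicle and 5 and 0 with PM, and Cyp1b1 had 4 and 1 with vehicle and 26 and 31 with PM, so neither reached the filter. A match to the xenobiotic response element TNGCGTG on either strand was found in the windows of 1 of the 10 listed genes with a window and 1 of the 3 DEGs among them, against 5.77% of DEGs that rose, 8.42% of DEGs that fell and 9.83% of all genes tested.

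Of the genes of metal handling, 9 rose and 3 fell at the adjusted p. Of 18 listed genes 16 were tested and 3 were DEGs, all higher, against 2.89% of all genes, with a median log2 fold change of 0.41. The metallothionein genes, whose proteins bind zinc and copper, were among them, Mt2 with 23.1 and 21.6 with vehicle and 142 and 132 with PM (log2 fold change 2.61, SE 0.293, adjusted p = 1.43e-04) and Mt1 with 104 and 97.1 with vehicle and 300.5 and 287 with PM (log2 fold change 1.54, SE 0.245, adjusted p = 0.00136). Fth1, the ferritin heavy chain, was among the most abundant transcripts of all, with 11894 and 11706 with vehicle and 24470.0 and 24312 with PM (log2 fold change 1.05, SE 0.130, adjusted p = 2.92e-04). Its call was lost with scaling by total counts (log2 fold change 0.97) and with a correction for gene length (0.99), where it was under 2-fold. Tfrc, the transferrin receptor, and Slc39a10, a zinc importer, fell, with log2 fold changes of -0.70 and -0.96.

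Among receptors for microbes and particles, 17 rose, 3 fell and 13 did not pass the adjusted p, which 23.9% of all genes met. All 33 listed genes were tested, 3 of them having passed with PM alone, 8 were DEGs higher (against 2.89% of all genes) and 1 was a DEG lower (1.25%), and the median log2 fold change was 0.37. Under the alternative settings this median ran from 0.22 to 0.44. Fpr1, a receptor for formylated peptides, had 0.819 and 0.637 with vehicle and 39.8 and 34.3 with PM (log2 fold change 5.66, SE 0.157, adjusted p = 4.31e-08), and its neighbour Fpr2 had 0.928 and 0.637 with vehicle and 27.2 and 20.5 with PM (log2 fold change 4.92, SE 0.238, adjusted p = 5.33e-07). Clec4e, also called Mincle, had 8.65 and 9.53 with vehicle and 327 and 285 with PM (log2 fold change 5.07, SE 0.189, adjusted p = 1.37e-07). Marco, a scavenger receptor that binds inhaled particles, had 2.21 and 2.49 with vehicle and 79.9 and 77.0 with PM (log2 fold change 5.06, SE 0.163, adjusted p = 6.27e-08). Fpr1 and Fpr2 passed the filter with PM alone, and Clec4e and Marco passed in both groups.

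The toll-like receptors did not move together. Tlr2 had 17.2 and 17.1 with vehicle and 121 and 109.9 with PM (log2 fold change 2.75, SE 0.113, adjusted p = 2.26e-07), whereas Tlr4 had 143 and 154 with vehicle and 136 and 141 with PM (log2 fold change -0.10, SE 0.129, adjusted p = 0.578) and Tlr7 had 180.0 and 195.7 with vehicle and 188 and 181 with PM (log2 fold change -0.03, SE 0.0987, adjusted p = 0.865). The DEG that fell in this list was Mrc1, the mannose receptor, with 548 and 579 with vehicle and 272 and 288 with PM (log2 fold change -1.01, SE 0.163, adjusted p = 0.00150). Its log2 fold change was near the threshold and was under 2-fold with a correction for gene length (-0.93), without PM replicate 1 (-0.97) and without vehicle replicate 2 (-0.97). The scavenger receptor gene Cd36 had at least 7523 CPM in each library and did not pass (log2 fold change -0.16, SE 0.0686, adjusted p = 0.118).

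Secreted defence proteins include some of the largest increases. Of 19 listed genes 14 were tested, 4 of these passed with PM alone, and 8 were DEGs, all higher, against 2.89% of all genes, with a median log2 fold change of 1.06 over the 14. Under the filter that required the CPM in all 4 libraries the median of this list was 0.24. Saa3, an acute-phase protein, had 4.80 and 4.76 with vehicle and 138 and 132 with PM (log2 fold change 4.82, SE 0.124, adjusted p = 3.37e-08). C3, the central complement component, had 4.45 and 3.99 with vehicle and 98.0 and 93.7 with PM (log2 fold change 4.50, SE 0.111, adjusted p = 3.37e-08). The subunits of C1q, which are typical of macrophages, did not follow: C1qa, C1qb and C1qc had log2 fold changes of 0.08, -0.15 and -0.26, none of which passed. Lyz2, the macrophage lysozyme, had 9161 and 9059.9 with vehicle and 20726 and 18439 with PM (log2 fold change 1.10, SE 0.108, adjusted p = 5.56e-05).

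Proteases, their inhibitors and matrix genes moved in both directions. Of 19 listed genes 16 were tested, 3 of them having passed with PM alone, 5 were DEGs higher (against 2.89% of all genes) and 2 lower (1.25%), and the median log2 fold change was 0.18. Under the filter that required the CPM in all 4 libraries it was -0.23. Mmp14, a membrane-bound collagenase, had 1.17 and 1.27 with vehicle and 20.8 and 19.1 with PM (log2 fold change 4.02, SE 0.146, adjusted p = 1.37e-07), Mmp8, the neutrophil collagenase, had 26.4 and 31.0 with vehicle and 255 and 253 with PM (log2 fold change 3.15, SE 0.105, adjusted p = 7.98e-08), and Vcan, which encodes versican, had 0.874 and 0.831 with vehicle and 3.43 and 2.67 with PM (log2 fold change 1.83, SE 0.292, adjusted p = 0.00138). The DEGs that fell were Plau, the urokinase gene, with 1647 and 1713 with vehicle and 571 and 567 with PM (log2 fold change -1.56, SE 0.0736, adjusted p = 4.51e-07), and Thbs1, thrombospondin-1, with 219 and 214 with vehicle and 78.3 and 89.5 with PM (log2 fold change -1.37, SE 0.226, adjusted p = 0.00174). The groups did not overlap in any of these genes, as in every DEG and in 77.4% of all genes tested. Mmp14 and Vcan passed the filter with PM alone.

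Of 20 listed prostaglandin and leukotriene genes 15 were tested, of which 8 rose, 3 fell and 4 did not pass. Among them 3 were DEGs higher (against 2.89% of all genes) and 1 lower (1.25%), with a median log2 fold change of 0.36. Ptgs2, also called COX-2, had 2.05 and 2.46 with vehicle and 39.0 and 37.2 with PM (log2 fold change 4.08, SE 0.189, adjusted p = 4.35e-07), and Ptges, the synthase of prostaglandin E, had 3.41 and 2.88 with vehicle and 18.4 and 19.7 with PM (log2 fold change 2.60, SE 0.119, adjusted p = 4.30e-07). Pla2g7, a secreted phospholipase that inactivates platelet-activating factor, had 153 and 153 with vehicle and 628 and 553 with PM (log2 fold change 1.95, SE 0.0836, adjusted p = 3.14e-07). Hpgd, which inactivates prostaglandins, had 7.02 and 7.09 with vehicle and 2.52 and 2.16 with PM (log2 fold change -1.59, SE 0.157, adjusted p = 5.79e-05). The constitutive Ptgs1 had a log2 fold change of 0.47.

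Of 18 listed genes of alternative activation and arginine use 10 were tested and 3 were DEGs, against 4.14% of all genes. Of these 2 were higher and 1, Mrc1, was lower, and the median log2 fold change of the list was 0.08 (-0.06 with the CPM required in all 4 libraries). Ass1, which rebuilds arginine from citrulline, had 0.710 and 0.748 with vehicle and 15.6 and 14.5 with PM (log2 fold change 4.36, SE 0.269, adjusted p = 2.78e-06), and Chil3, a chitinase-like protein, had 1.17 and 1.14 with vehicle and 3.25 and 2.96 with PM (log2 fold change 1.43, SE 0.199, adjusted p = 6.14e-04). Both passed the filter with PM alone. Nos2, the inducible nitric oxide synthase, was not tested and had 3 and 1 reads with vehicle and 27 and 17 with PM.

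Antigen presentation genes had 8 of 11 members tested, with a median log2 fold change of 0.59 over the 8 (0.28 with the CPM required in all 4 libraries). Of these 1, which passed the filter with PM alone, was a DEG, against 4.14% of all genes. This was H2-Aa, an MHC class II chain, which was low, with 0.846 and 1.19 with vehicle and 1.91 and 2.44 with PM (log2 fold change 1.09, SE 0.264, adjusted p = 0.0143). The call did not hold without PM replicate 2 (log2 fold change 0.90, adjusted p = 0.102) or without vehicle replicate 1 (0.87, adjusted p = 0.128). Cd74, the invariant chain, rose with a log2 fold change of 0.97, and Cd80 and Cd86, the costimulatory ligands, had -0.19 and 0.27 and did not pass.

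Of the 28 itaconate and TCA cycle genes, all tested, 1 of them passed with PM alone and 1 with vehicle alone, 2 were DEGs, and these were Acod1 and Pcx, the pyruvate carboxylase that refills the cycle, with 1.88 and 2.52 with vehicle and 6.51 and 7.88 with PM (log2 fold change 1.71, SE 0.159, adjusted p = 4.02e-05). The median of the list was 0.09 (from 0.01 to 0.12 under the alternative settings), and 23 of the 28 did not meet the adjusted p. Of all genes tested, 4.14% were DEGs and 23.9% met the adjusted p. The subunits of succinate dehydrogenase, the enzyme that itaconate inhibits, had log2 fold changes of 0.10 (Sdha), 0.303 (Sdhb), 0.07 (Sdhc) and 0.29 (Sdhd), none of which passed. Idh1, the cytosolic isocitrate dehydrogenase, rose with 0.55.

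None of the 40 respiratory chain genes met the adjusted p in the edgeR fit of all 12 libraries, against 23.9% of all genes. Their log2 fold changes ran from -0.07 to 0.44 with a median of 0.25. With a correction for gene length the median was 0.08. The smallest p belonged to Cox5a (103 and 105 with vehicle and 149.9 and 132 with PM, adjusted p = 0.0693) and Cox5b (36.0 and 32.6 with vehicle and 40.0 and 42.9 with PM, adjusted p = 0.0715). The log2 fold change of Cox5b was 0.27, and its adjusted p ran from 0.00523 with edgeR on the compared libraries alone to 0.366 with a correction for gene length, where the log2 fold change was 0.10. Of 24 glycolysis and HIF-1 genes 23 were tested, and 1 was a DEG, against 4.14% of all genes. This was Slc2a6, a glucose transporter of the lysosome, with 8.44 and 8.70 with vehicle and 43.3 and 42.7 with PM (log2 fold change 2.33, SE 0.153, adjusted p = 3.87e-06). The median of that list was 0.13 (from 0.05 to 0.14 under the alternative settings).

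The 2 lists of lipid genes held no DEG, against 4.14% of all genes, of which 23.9% met the adjusted p. Of the 24 tested genes of cholesterol and fatty acid synthesis, 2 rose and 1 fell at the adjusted p, the median was 0.01 (-0.07 with total counts), and the smallest p belonged to Mvd, with 12.2 and 12.2 with vehicle and 22.0 and 22.4 with PM (log2 fold change 0.87, SE 0.0975, adjusted p = 1.44e-04). Of the 18 tested genes of LXR and PPAR lipid handling, 4 rose and 4 fell, with a median of 0.07 (-0.01 with total counts). Pparg, a nuclear receptor of fatty acids, had 40.4 and 41.0 with vehicle and 22.7 and 21.8 with PM (log2 fold change -0.87, SE 0.0689, adjusted p = 1.37e-05), and Nr1h3, which encodes LXRα, had 18.8 and 17.3 with vehicle and 35.2 and 30.4 with PM (log2 fold change 0.86, SE 0.125, adjusted p = 7.84e-04).

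Of 33 listed cell cycle genes, all tested, 21 fell at the adjusted p, none rose and 12 did not pass, against 23.9% of all genes that met this p in either direction. The median log2 fold change of the list was -0.40. The one DEG was Ccnd1, cyclin D1, which M-CSF sustains in growing macrophages, with 542 and 552 with vehicle and 205 and 234 with PM (log2 fold change -1.32, SE 0.0815, adjusted p = 2.78e-06). The proliferation marker Mki67 had 271 and 276 with vehicle and 157 and 162 with PM (log2 fold change -0.78, SE 0.151, adjusted p = 0.00441), and Top2a, needed in mitosis, had 266 and 262 with vehicle and 174 and 162 with PM (log2 fold change -0.65, SE 0.102, adjusted p = 0.00131). Genes of DNA replication licensing had log2 fold changes from -0.33 (Mcm4) to -0.15 (Mcm6) over the 6 Mcm genes. Myc, listed with the immediate early genes, fell, with 32.9 and 32.5 with vehicle and 15.8 and 18.2 with PM (log2 fold change -0.94, SE 0.0835, adjusted p = 2.92e-05).

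Efferocytosis genes had no DEG among 14 tested, with a median log2 fold change of -0.38. At the adjusted p 7 fell and 1 rose, against 23.9% of all genes that met it in either direction. Gas6, the ligand of the TAM receptors that bind dying cells, had 283 and 279 with vehicle and 156 and 165 with PM (log2 fold change -0.80, SE 0.0631, adjusted p = 1.31e-05). Itgav, an integrin subunit for the same purpose, also fell (log2 fold change -0.89, SE 0.164, adjusted p = 0.00334), and without PM replicate 2 its log2 fold change was -1.05, past the 2-fold threshold. Axl fell with a log2 fold change of -0.55, and Mertk did not pass (-0.11).

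Immediate early and stress genes gave mixed values. Of 18 tested AP-1 and immediate early genes, 1 passed with PM alone and 1 with vehicle alone. Among the 18, 2 were DEGs higher (against 2.89% of all genes) and 1 lower (1.25%), with a median log2 fold change of -0.15. Under the alternative settings this median ran from -0.28 to -0.13. Ier3, which restrains NF-κB-driven cell death, had 11.7 and 11.6 with vehicle and 45.4 and 48.6 with PM (log2 fold change 2.02, SE 0.170, adjusted p = 2.04e-05), Batf, an AP-1 factor, had 1.15 and 1.16 with vehicle and 2.46 and 2.27 with PM (log2 fold change 1.03, SE 0.190, adjusted p = 0.00339), and Egr1, a growth factor-induced factor, had 16.0 and 15.8 with vehicle and 6.45 and 5.89 with PM (log2 fold change -1.36, SE 0.129, adjusted p = 4.48e-05). Batf was under 2-fold with scaling by total counts (log2 fold change 0.95), with a correction for gene length (0.84) and without PM replicate 1 (0.97). Of 18 tested p53 targets 15 did not meet the adjusted p, which 23.9% of all genes met, and the median was -0.17. The one DEG was the death receptor gene Fas, with 3.19 and 3.88 with vehicle and 16.2 and 12.9 with PM (log2 fold change 2.04, SE 0.235, adjusted p = 1.70e-04), which NF-κB also induces.

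The integrated stress response, run by ATF4, went in both directions. Of 21 tested genes, 1 of which passed with vehicle alone, 3 were DEGs higher (against 2.89% of all genes) and 2 lower (1.25%). The median log2 fold change was -0.17. Under the alternative settings this median ran from -0.32 to -0.12. Slc7a11, given above, Cebpb, a myeloid transcription factor (29.1 and 26.1 with vehicle and 67.8 and 73.9 with PM, 1.36, SE 0.142), and Nupr1 (5.02 and 4.38 with vehicle and 10.8 and 9.83 with PM, 1.13, SE 0.234) were higher. The serine synthesis gene Psat1 was lower, with 84.1 and 80.8 with vehicle and 34.6 and 35.3 with PM (log2 fold change -1.24, SE 0.102, adjusted p = 1.69e-05), as was Phgdh of the same pathway (log2 fold change -1.07, SE 0.304, adjusted p = 0.0300). Nupr1 lost its call without PM replicate 1 (adjusted p = 0.0527) and without vehicle replicate 2 (adjusted p = 0.0635). Atf4 itself had a log2 fold change of 0.05 and Asns of -0.58.

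Of 13 tested heat shock genes, 1 of which passed with PM alone, 2 were DEGs, both higher, against 2.89% of all genes. Hspa1a, the inducible HSP70, had 1.09 and 1.11 with vehicle and 12.4 and 11.3 with PM (log2 fold change 3.43, SE 0.227, adjusted p = 4.18e-06), and Hspa1b had 1.502 and 1.08 with vehicle and 10.7 and 9.97 with PM (log2 fold change 2.997, SE 0.235, adjusted p = 1.31e-05). The 2 genes are nearly identical, so reads may be divided between them in an unknown way. The median of this list was 0.20 (from 0.12 to 0.23 under the alternative settings), and Hspb1 was not tested, with at most 7 reads in a library. All 31 lysosome and autophagy genes were tested, and 2 were DEGs: Ctsk, cathepsin K (10.6 and 10.99 with vehicle and 28.9 and 26.8 with PM, 1.37, SE 0.110), and Sqstm1, the autophagy receptor p62 and an NRF2 target (533 and 524 with vehicle and 1304 and 1277 with PM, 1.29, SE 0.115). At the adjusted p alone 15 lysosome genes rose and 3 fell, with a median of 0.22 (from 0.14 to 0.24 under the alternative settings). Of all genes tested, 4.14% were DEGs and 23.9% met the adjusted p in either direction.

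**Figure D4:**
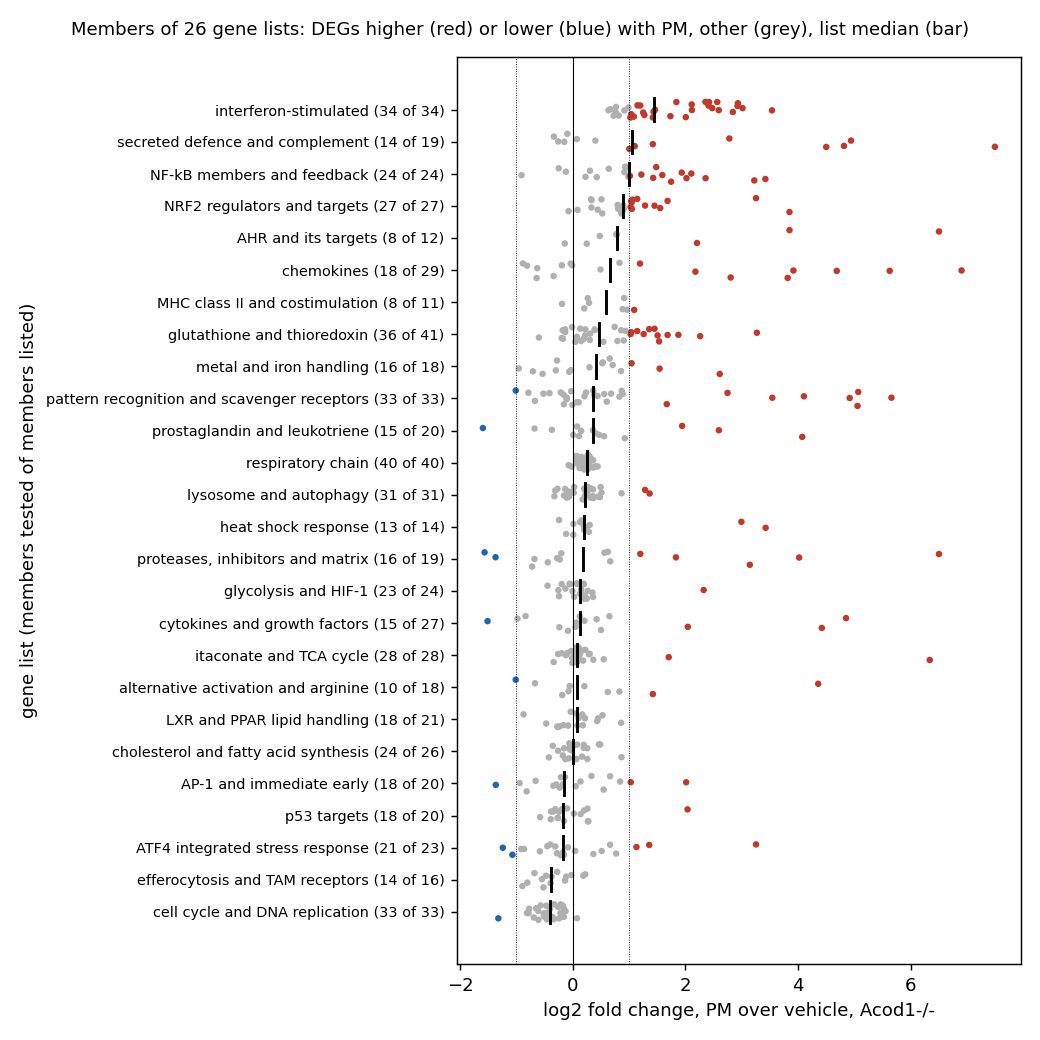
Log2 fold change of PM over vehicle in Acod1-/- macrophages for the tested members of 26 gene lists, ordered by the list median (black bar), with members tested and listed in brackets. The interferon-stimulated list has the highest median (1.45) and the cell cycle list the lowest (-0.40), against 0.00 for all genes tested.

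Whether the response of Acod1-/- cells differed from that of WT cells was tested by the interaction of genotype and treatment, over the same 10968 genes. The 2 comparisons share no library, although all 12 libraries share 1 estimate of the spread. With edgeR's quasi-likelihood test no gene was called (0.0%), and the smallest unadjusted p was 1.07e-04. An unadjusted p under 0.05 was met by 267 genes (2.43%), fewer than uniform p-values would give. The log2 difference between the genotypes was under 0.5 in size for 98.4% of genes and at least 1 for 8 genes, and the median SE of the difference was 0.156. A p that misses the threshold does not show that the responses were alike. DESeq2 called 4 genes on all 12 libraries (Gbp2, Tnfaip2, Tgfbi and Rtp4) and 7 on the compared libraries alone (Thbs1, Gbp2, Mmp8, Ccl2, Ccl3, Rtp4 and AW112010). With the replicate block and gene length correction together, edgeR called 4 genes, which were Ccl2 (adjusted p = 0.0106), Ccl3 (0.0179), Gbp2 (0.0261) and Thbs1 (0.0490). The WT PM replicates, which enter this comparison, lay further apart than those of the Acod1-/- groups, with a chi-square per degree of freedom of 27.3 and a difference related to gene length (Spearman's rho of 0.61 across genes). The WT replicates with OI and PM, which enter the shared estimate of the spread, were at 58.5. Without the OI libraries and without any 1 of the WT or Acod1-/- vehicle or PM libraries edgeR called no gene.

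Of the 10968 genes, 412 were DEGs between PM and vehicle in WT, and 354 genes were DEGs in both genotypes with the same direction. These were 78.0% of the DEGs in Acod1-/- cells and 85.9% of those in WT cells. Of the 454 Acod1-/- DEGs, 453 had the same sign in WT, and Mir221, a miRNA gene with between 29 and 86 reads in the 4 libraries, had the other sign. Of the 100 genes that were DEGs in Acod1-/- cells alone, 89 met the adjusted p in WT without the fold change. Across genes, the log2 fold changes in the 2 genotypes had a Pearson's r of 0.951 and a Spearman's rho of 0.898, a description in which genes are not independent replicates.

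**Figure D5:**
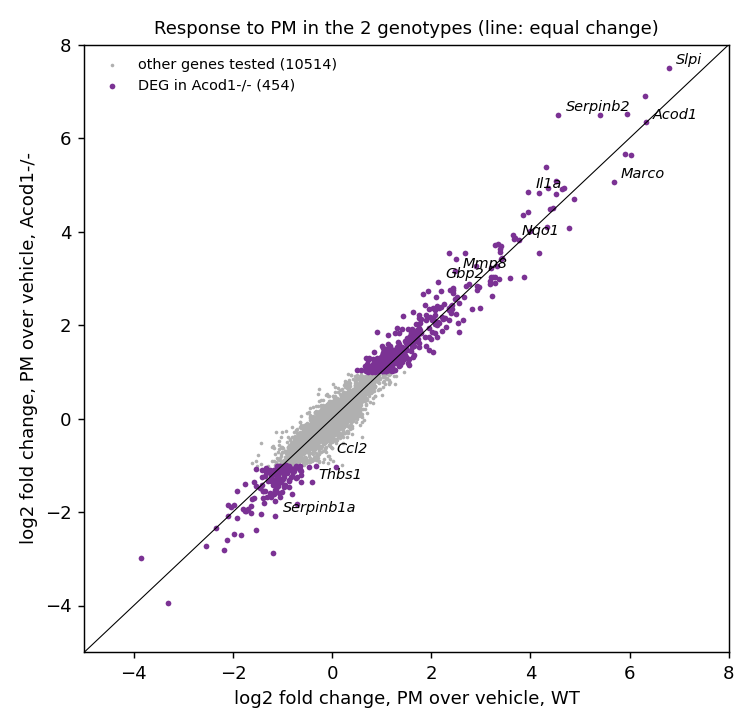
Log2 fold change of PM over vehicle in Acod1-/- against WT macrophages for 10968 genes, with the 454 Acod1-/- DEGs in purple and the line of equal change. Acod1 lies on the line (6.34 and 6.33), and Serpinb2 (6.50 and 4.57) lies above it. Serpinb2 had 3 and 5 reads in the Acod1-/- vehicle libraries, and edgeR's interaction test did not call it (unadjusted p = 0.00773).

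The 6 genes with the smallest interaction p are given with their values, although in the edgeR fit of all 12 libraries the adjusted p of the interaction was 1.0 for every gene. The 95% intervals here and below are not from edgeR's interaction test. They use an SE combined from the effects in each genotype. The 6 genes were chosen by their p, so intervals that exclude 0 add nothing to it. Gbp2 had 15.01 and 14.7 with vehicle and 69.7 and 61.8 with PM in WT libraries, a log2 fold change of 2.15 against the 2.93 of Acod1-/- cells, and an edgeR difference of 0.78 (95% interval 0.49 to 1.07). The log2 fold change of Serpinb1a was -2.08 in Acod1-/- and -1.14 in WT cells, with an edgeR difference of -0.94 (95% interval -1.33 to -0.54). For Mmp8 the difference was 0.67 (95% interval 0.34 to 0.997), from a WT change of 2.48, where the values were 56.0 and 57.1 with vehicle and 328 and 301 with PM.

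Acsl1, which activates long-chain fatty acids, had 50.6 and 51.5 with vehicle and 114 and 116 with PM in Acod1-/- cells and 52.4 and 50.6 with vehicle and 87.0 and 81.2 with PM in WT cells, an edgeR difference of 0.46 (95% interval 0.25 to 0.68). Tgfbi, an extracellular matrix protein, had 61.1 and 60.5 with vehicle and 128 and 124 with PM in Acod1-/- cells and 73.2 and 72.2 with vehicle and 115 and 116 with PM in WT cells, an edgeR difference of 0.38 (95% interval 0.20 to 0.56). The kinase gene Plk2 had 528 and 541 with vehicle and 408 and 411 with PM in Acod1-/- cells and 485 and 490.2 with vehicle and 479 and 471 with PM in WT cells, an edgeR difference of -0.35 (95% interval -0.51 to -0.18). In Acod1-/- cells Acsl1 (1.17) and Tgfbi (1.05) were DEGs, with log2 fold changes in brackets, and Plk2 (-0.38) fell by less than 2-fold. The call of Tgfbi was lost with scaling by total counts, where its log2 fold change was 0.97.

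Among the lists, the interferon-stimulated genes had a median of 1.45 in Acod1-/- and 1.82 in WT cells. Of the 34 members, 25 had a lower and 9 a higher log2 fold change in Acod1-/- cells, 7 had an unadjusted interaction p under 0.05 against 2.43% of all genes, and none was called by edgeR without a gene length correction. Among all genes tested, 49.7% had a higher log2 fold change in Acod1-/- cells. The 7 were Gbp2, Gbp3, Gbp5 and Irf1, with a higher log2 fold change in Acod1-/- cells, and Rtp4, Usp18 and Oasl1, with a lower one. The log2 difference of Rtp4, an antiviral transporter protein, was -0.62 (95% interval -0.92 to -0.31) by edgeR, and Rtp4 was among the genes that DESeq2 called in both of its fits. For the NRF2 list the medians were 0.90 in both genotypes, and none of the 27 members had an unadjusted interaction p under 0.05. In the NF-κB list the medians were 1.005 in Acod1-/- and 0.988 in WT cells, and 20 of 24 members had a higher log2 fold change in Acod1-/- cells. Uneven splits were not particular to these lists. The log2 fold change in Acod1-/- cells was lower for 34 of 40 respiratory chain and 25 of 33 cell cycle genes, and higher for 12 of 14 secreted defence genes. In the NF-κB list 4 members had an unadjusted interaction p under 0.05. Of the other lists with at least 2 members at this p, it was met by 5 of 33 cell cycle genes, 4 of 15 cytokine genes, 4 of 16 protease and matrix genes, 4 of 33 receptor genes, 3 of 18 chemokine genes, 3 of 21 ATF4 genes, 2 of 8 AHR genes and 2 of 15 prostaglandin and leukotriene genes. The log2 difference of Nqo1 was 0.18 (95% interval -0.16 to 0.51) and that of Gclm was 0.03 (95% interval -0.17 to 0.23), both by edgeR.

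For the genes that the study followed by qPCR, the edgeR interaction gave a log2 difference of -0.49 (95% interval -0.99 to 0.02) for Tnf and 0.47 (95% interval -0.10 to 1.04) for Il1b. The intervals use an SE combined from the effects in each genotype. For Il1b this interval is narrower than edgeR's interaction test implies, whose unadjusted p was 0.141. That of Hmox1 was -0.25 (95% interval -0.55 to 0.04) and that of Nfe2l2 0.03 (95% interval -0.15 to 0.21). For Acod1 it was 0.01 (95% interval -0.88 to 0.90). Ccl2 and Ccl3 had log2 fold changes of -0.07 and 0.40 in WT cells, and edgeR differences of -0.74 (95% interval -1.23 to -0.25) and -0.74 (95% interval -1.26 to -0.21), and DESeq2 on the compared libraries alone and edgeR with the replicate block and gene length correction called both. For Thbs1, also called in these 2 fits, the WT change was -0.42 and the difference -0.95 (95% interval -1.67 to -0.24) by edgeR.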

How the data were processed

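RNA of bone marrow-derived macrophages was sequenced as single-end reads of 50 bases. Per the labels and the study's methods, the authors mapped reads to GRCm38 with STAR 2.5.3a and counted them per gene with featureCounts, and the deposited files hold these raw counts, unnormalized and 1 file per library. FastQC 0.11.5 and Picard 2.9.0 are in the submitters' processing notes, and the annotation, strand setting and treatment of shared exons are not given in the sources used here. The authors tested genes with DESeq2, whose output was not used here.

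Groups came from the labels. Genes were kept where the CPM passed 1.5 in at least 2 of the 4 Acod1-/- vehicle and PM libraries. Counts of all 12 libraries, those with OI included to estimate the spread, were fitted with 1 mean per group by edgeR 4.0.16 (quasi-likelihood, TMM scaling, R 4.3.3). Adjusted p is that of Benjamini and Hochberg over all genes tested, and the SE of a log2 fold change is the one implied by the test. The interaction was the difference of the PM effects in Acod1-/- and WT libraries, its SE combines those of the 2 effects. Normalized CPM uses the TMM library sizes. The code was tested on simulated data.

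Genes named are Acod1, the genes that the study measured by qPCR, the 10 DEGs that rose and the 8 that fell by the most at a mean of at least 5 CPM with no overlap between groups, up to 4 DEGs per list (2 members with the smallest p where a list had none) and the 6 genes with the smallest interaction p. One gene that this rule names is not reported here. Other list members are given by counts and ranges, or were named after their values were seen. Members and lists were chosen with earlier results of these data known. Promoter windows came from RefSeq on GRCm38.p6, and 8675 tested genes matched by symbol. Alternatives were DESeq2 1.42.0, other scalings, filters, thresholds and sample sets, a replicate block, a correction for gene length (lowess, span 0.3) and leaving out each library. The compared libraries held between 34009208 and 34359553 counts.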

Additional observations from a re-analysis of the deposited data

How the results depend on the processing

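The number of DEGs between PM and vehicle in Acod1-/- libraries was 454. It was 222 when edgeR tested against a 2-fold change (glmTreat) and 2622 at the adjusted p with no fold threshold, both by construction. It lay between 316 and 677 under the other filters on low counts and between 431 and 461 under the other tests, scalings, corrections and sample sets, and it ranged from 426 to 491 without 1 library. Scaling by total counts moved the median of all genes to -0.08 and gave 278 DEGs higher of 458, against 317 of 454. None of the 1321 recomputed values of the 84 named genes reversed its direction. The list median turned sign for chemokines (-0.01), proteases (-0.23) and alternative activation (-0.06) with the CPM required in all 4 libraries, and for cholesterol synthesis (-0.07) and LXR and PPAR lipid handling (-0.01) with total counts, that of cholesterol synthesis also without vehicle replicate 1 (-0.01). Replicates 1 and 2 are numbered alike in both groups, but deviations of same-numbered libraries had a correlation of -0.068 in Acod1-/- and 0.26 in WT libraries, and with 2 pairs they were treated as sharing only a number. With the replicate block there were 461 DEGs, and the 454 were all among them, while 4008 genes met the adjusted p, against 2622. That number was 5574 with edgeR on the compared libraries alone, 3911 without the OI libraries and 4360 with DESeq2 on the compared libraries alone, and 1369 without PM replicate 1, 1675 without PM replicate 2, 1386 without vehicle replicate 1 and 1403 without vehicle replicate 2. The interaction called 0 genes by edgeR (267 at an unadjusted p under 0.05), 4 by DESeq2 on 12 libraries, 7 by DESeq2 on the compared libraries alone and 4 with the replicate block and gene length correction (Gbp2, Thbs1, Ccl2 and Ccl3), and 0 under the other settings, each library left out included. The cause of these differences was not tested. Of the 1321 values 1304 kept their side of the threshold, 16 lost it and 1 (Itgav) gained it, and the genes affected were Fth1, Batf, H2-Aa, Mrc1, Nupr1, Itgav and Tgfbi. Of 416 recomputed list medians, 65 moved by more than the spread between replicates, and that of the respiratory chain was 0.08 with the gene length correction, against 0.25. Genes below the CPM filter, Il6, Nos2 and Cyp1a1 among them, were not tested at this depth.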

Other observations

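DEGs outside the gene lists were looked through after their values were seen, and the following are values with no test of a group. Several genes of MHC class I presentation rose in the libraries labelled Acod1-/-. H2-K1, a classical heavy chain, had normalized CPM values of 512 and 499 with vehicle and 1079.8 and 1038 with PM (log2 fold change 1.07). Tapbp, which encodes the peptide editor tapasin, had 231 and 232 with vehicle and 468 and 473 with PM (log2 fold change 1.02), and Psmb10, a subunit of the immunoproteasome, had 50.5 and 52.3 with vehicle and 111 and 98.7 with PM (log2 fold change 1.03). Subunits of the phagocyte NADPH oxidase and its proton channel were also higher. Cybb, the catalytic subunit, had 958 and 1001 with vehicle and 2600.4 and 2552 with PM (log2 fold change 1.40), and Ncf4 and Hvcn1 had log2 fold changes of 1.12 and 1.72. The coagulation factor genes F10 and F7 had log2 fold changes of 2.39 and 1.03, and Procr, the receptor of protein C, had 23.8 and 25.7 with vehicle and 154 and 144 with PM (log2 fold change 2.59). Gpr84, a receptor for medium-chain fatty acids, had 1.28 and 0.997 with vehicle and 25.4 and 25.5 with PM (log2 fold change 4.47), and Cd274, which encodes PD-L1, had 58.8 and 58.7 with vehicle and 157 and 151 with PM (log2 fold change 1.39). Gpr84 passed the CPM filter with PM alone.

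Among genes that fell outside the lists, Hmga2, a chromatin protein, had 307 and 309 with vehicle and 111 and 122 with PM (log2 fold change -1.40), and Mef2c, a transcription factor of microglia and other myeloid cells, had 149 and 148 with vehicle and 58.3 and 65.8 with PM (log2 fold change -1.26). Itga4, an integrin subunit, had a log2 fold change of -1.05. Ccr2, the receptor of Ccl2 and Ccl7, was low, with 6.20 and 7.78 with vehicle and 3.05 and 3.19 with PM (log2 fold change -1.16), and Ccnd2, a second D-type cyclin, had 22.5 and 23.6 with vehicle and 6.83 and 8.22 with PM (log2 fold change -1.62). Of the 454 DEGs, 301 had a mean of at least 5 CPM. Below that level the largest increase was that of Il1f9, an interleukin-36 gene, with 0.0819 and 0.111 with vehicle and 9.59 and 8.48 with PM (log2 fold change 6.50), followed by Lox, a collagen crosslinking enzyme, with 0.0819 and 0.0554 with vehicle and 2.73 and 3.31 with PM (log2 fold change 5.38). The decreases there included Myh15, with 1.69 and 1.52 with vehicle and 0.0586 and 0.144 with PM (log2 fold change -3.94), and Il1rl1, the interleukin-33 receptor, with 8.30 and 8.78 with vehicle and 1.11 and 1.32 with PM (log2 fold change -2.81). Il1f9 and Lox passed the CPM filter with PM alone, and Myh15 and Il1rl1 with vehicle alone. The reads behind these low values were few, from 2 to 5 for Myh15 with PM and from 2 to 3 for Lox with vehicle.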
